A study of Mus musculus with 21 samples.

Results

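Striatal projection neuron genes were followed through the translated and transcribed RNA of the embryonic mouse forebrain and kidney. The 10 genes were chosen by symbol from the 23827 gene rows of the deposited tables, and each symbol had 1 row. They are 8 genes of transcription factors (Isl1, Ebf1, Foxp1, Foxp2, Meis2, Six3, Sp8 and Sp9) and 2 genes of neuropeptide precursors (Penk and Tac1).

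The study evaluated TRAP-seq, in which ribosomes that carry an mCherry-tagged Rpl10a protein are immunoprecipitated from intact tissue and their RNA is sequenced. It holds 21 libraries in 7 groups of 3 independent biological replicates, each from pooled organs of E14.5 embryos. All embryos were heterozygous for the Gt(ROSA)26Sor-mCherry-Rpl10a allele, which is silent until Cre removes a stop cassette. RNA bound to tagged ribosomes was called the translatome and total RNA of the same tissue the transcriptome.

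The groups differed in the Cre driver and in the RNA taken. Sox2Cre+/- embryos, in which the tag is active throughout the embryo proper, gave the brain transcriptome, brain translatome, kidney transcriptome and kidney translatome. Cdh5CreERT2+/- embryos, with an inducible endothelial driver, gave the brain and kidney endothelial cell (EC) translatomes. The study states that tamoxifen in corn oil was given by oral gavage before the harvest, without naming the crosses that received it. Emx1Cre+/- embryos gave the Emx1-lineage translatome from the forebrain. This driver marks the Emx1 lineage of the dorsal telencephalon, including cells that no longer express Emx1. The brain samples were the forebrain with part of the diencephalon. They therefore held the cortex, the ganglionic eminences with the young striatum, and other regions together.

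Striatal projection neurons are born in the lateral ganglionic eminence, a ventral part of the telencephalon, while projection neurons of the cortex are born dorsally in the Emx1 lineage. Striatal neurons use GABA as their transmitter and fall into a striatonigral class, which makes the tachykinin precursor Tac1, and a striatopallidal class, which makes the enkephalin precursor Penk. Isl1 and Ebf1 are known from the striatonigral class, Six3, Sp8 and Sp9 from the striatopallidal class and its precursors, and Foxp1, Foxp2 and Meis2 from striatal neurons more widely. The samples were whole tissue or ribosome pull-downs, not sorted striatal neurons, so the name of the gene group stands for known roles and not for the cells sampled.

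Between 21760652 and 79231692 reads were counted on genes per library, with the fewest in the kidney translatome (21760652 to 24605124). The markers of the labelled cells were higher in the fractions that carry their name. The summed RPKM (reads scaled to gene length and library size) of 8 endothelial genes was 2176 to 2228 in the brain EC translatome and 117 to 133 in the brain translatome. The sum of 12 cortical genes was 1511 to 1581 in the Emx1 lineage against 753 to 774 in the brain translatome. Of these genes, Neurod2, Neurod6, Tbr1, Eomes and Bhlhe22 are also in a list that the study made from these same samples. The study's sample list puts the Emx1-lineage, brain EC and kidney EC libraries each in a sequencing lane of their own, and the 3 brain translatome libraries in a further lane. Lane and group cannot be told apart in the comparisons with these groups. Where an EC translatome is compared with a Sox2Cre group, the Cre driver and any tamoxifen treatment cannot be told apart from the group either. In whole-tissue RNA, fewer cells of a type and less RNA per cell cannot be told apart either.

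**Figure D1:**
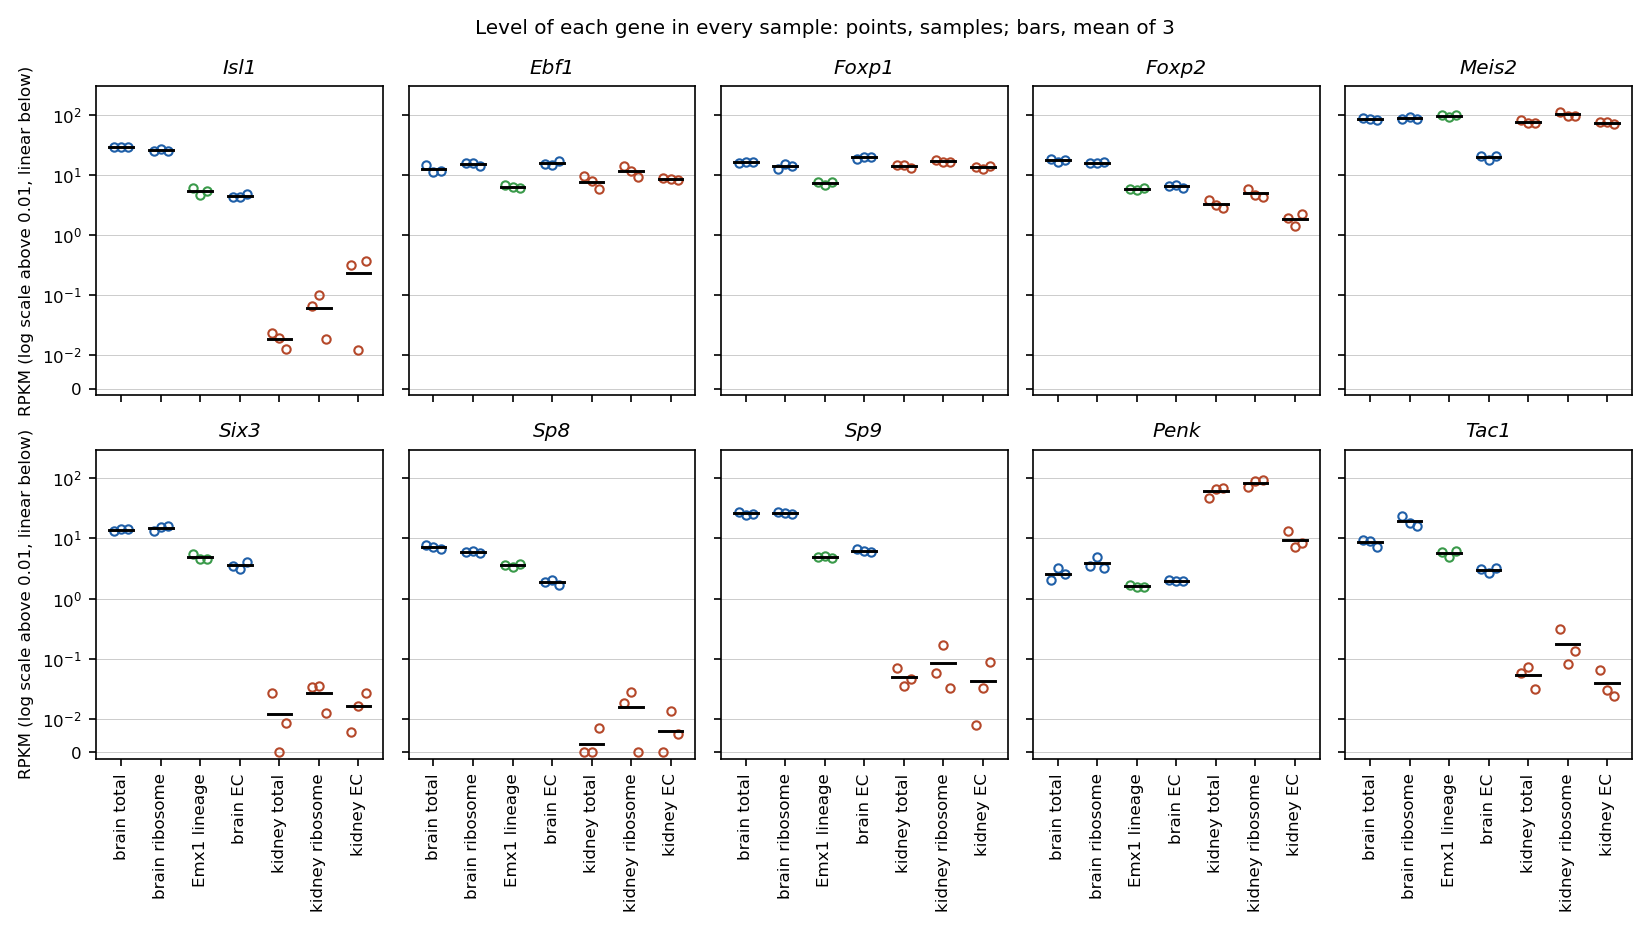
Level of each of the 10 genes in all 21 libraries. The y axis is RPKM on a log scale (linear below 0.01), the x axis the 7 groups, points are libraries and bars are means of 3. Isl1, Six3, Sp8, Sp9 and Tac1 lie below 0.4 RPKM in every kidney library, Meis2 is high in every group but brain EC, and Penk is highest in kidney.

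The first comparison asked where in the forebrain the RNA of these genes lies, by setting the ribosome-bound RNA of the dorsal Emx1 lineage against that of all forebrain cells. In the Emx1 lineage, 9 of the 10 genes fell (adjusted p below 0.001 by edgeR's quasi-likelihood test), 0 rose, and Meis2 did not pass. Over all 19006 genes tested, 12.8% were called lower and 9.2% higher. The falls ranged from 1.57-fold for Sp8 to 5.23-fold for Sp9. The median log2 fold change of the 10 genes was -1.29, against 0.00 over all genes tested. For each of the 10 genes, the uncalled Meis2 included, the 3 Emx1-lineage libraries and the 3 brain translatome libraries did not overlap in RPKM. The share of all genes without such overlap was not counted, so this is a description of the 10 genes only.

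Isl1 (chr13:116298281-116309689, minus strand, GRCm38) codes for a LIM-homeodomain factor needed for striatonigral neurons. It had 28.8, 28.9 and 28.9 RPKM in the brain transcriptome, 24.9, 26.4 and 24.99 in the brain translatome, and 5.99, 4.64 and 5.48 in the Emx1 lineage. The forebrain libraries were thus all above 24 RPKM and the dorsal lineage all below 6. Against the brain translatome Isl1 fell by 2.17 on the log2 scale in the lineage (SE 0.08, edgeR adjusted p = 2.0e-11).

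Sp9 (chr2:73271925-73284706, plus strand) codes for a zinc-finger factor of ganglionic eminence precursors and striatopallidal neurons. It had 27.3, 26.5 and 25.6 RPKM in the brain translatome and 4.98, 5.01 and 4.64 RPKM in the Emx1 lineage. This was the deepest fall among the 10 genes, with a log2 fold change of -2.39 (SE 0.06, edgeR adjusted p = 3.9e-13). Its paralogue Sp8 (chr12:118846329-118852576, plus strand), a zinc-finger factor also known from cortical patterning and olfactory bulb precursors, had 5.91, 6.15 and 5.68 RPKM in the brain translatome and 3.67, 3.38 and 3.78 in the Emx1 lineage. Sp8 showed the smallest fall, at -0.65 on the log2 scale (SE 0.07, edgeR adjusted p = 2.0e-06).

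Six3 (chr17:85613608-85629302, plus strand) codes for a homeodomain factor of the anterior forebrain that is also used by striatopallidal neurons. Its level was 13.4, 15.2 and 15.8 RPKM in the brain translatome and 5.47, 4.49 and 4.58 RPKM in the Emx1 lineage. The libraries of the lineage were all lower than the lowest of the brain translatome, and the fold change was 2.92-fold downward (log2 -1.54, SE 0.09, edgeR adjusted p = 1.9e-09).

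Ebf1 (chr11:44617317-45008091, plus strand) codes for a helix-loop-helix factor of differentiating striatonigral neurons that is also expressed outside the brain. It had 15.9, 15.5 and 14.0 RPKM in the brain translatome and 6.70, 6.16 and 6.04 in the Emx1 lineage, so that the libraries were well apart. Ebf1 fell by 1.21 on the log2 scale (SE 0.07, edgeR adjusted p = 3.5e-09).

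The forkhead pair moved the same way in the Emx1 lineage. Foxp1 (chr6:98925338-99522721, minus strand), a repressor of striatal and cortical projection neurons, had 12.3, 15.0 and 14.0 RPKM in the brain translatome and 7.62, 6.78 and 7.46 RPKM in the lineage. Foxp2 (chr6:14901349-15441977, plus strand), the related factor known from speech and vocal learning circuits, had 15.6, 15.5 and 16.3 RPKM in the brain translatome and 5.84, 5.56 and 5.99 in the lineage. No library of the lineage reached the lowest brain translatome library of either gene. On the log2 scale the change was -0.83 for Foxp1 (SE 0.07, edgeR adjusted p = 2.0e-07) and -1.37 for Foxp2 (SE 0.05, edgeR adjusted p = 2.2e-11).

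Meis2 was the exception. This gene (chr2:115863064-116065839, minus strand) codes for a TALE-homeodomain cofactor of the striatum that is also used in other tissues. It had 85.2, 90 and 84.3 RPKM in the brain translatome and 100.3, 91.5 and 97.8 in the Emx1 lineage. The lineage libraries were above all brain translatome libraries, by a narrow margin. The log2 fold change of 0.22 (SE 0.05) did not pass with edgeR (adjusted p = 0.0017), while DESeq2 gave 0.21 with adjusted p = 2.2e-04. Per length (RPKM), Meis2 was the most abundant of the 10 genes in the brain translatome.

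The neuropeptide precursors were lower in the dorsal lineage as well. Tac1 (chr6:7554879-7565834, plus strand), the precursor of substance P, had 23.6, 17.9 and 15.8 RPKM in the brain translatome and 5.92, 4.91 and 6.28 in the Emx1 lineage. Penk (chr4:4133531-4138819, minus strand), the precursor of the enkephalins, had 3.46, 4.89 and 3.16 RPKM in the brain translatome and 1.69, 1.56 and 1.58 in the lineage. Both genes varied more between the brain translatome libraries than the transcription factors did, yet neither overlapped with the lineage. Tac1 fell by 1.68 on the log2 scale (SE 0.13, edgeR adjusted p = 9.1e-08) and Penk by 1.19 (SE 0.16, edgeR adjusted p = 2.6e-05).

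**Figure D2:**
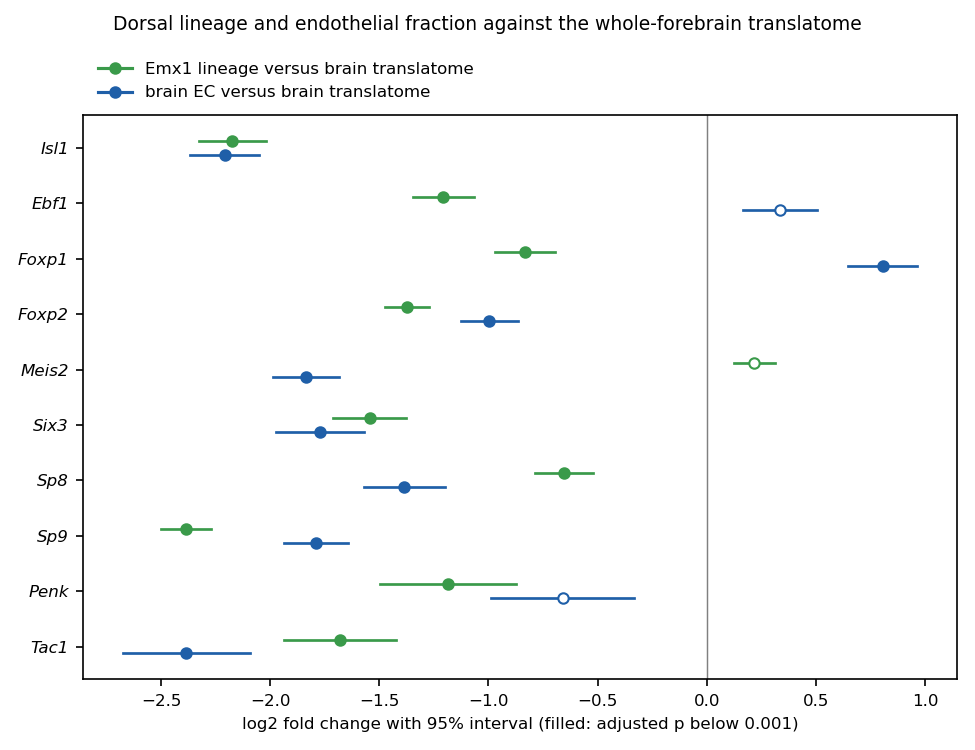
Log2 fold change of the 10 genes in the Emx1 lineage (green) and in the brain EC fraction (blue) against the brain translatome. Bars are 95% intervals of the edgeR fit, 3 libraries against 3, and filled points have an adjusted p below 0.001. Sp9 has the deepest fall in the Emx1 lineage (-2.39) and Tac1 in brain EC (-2.38), Meis2 parts from the other genes in the Emx1 lineage, and Foxp1 rises in brain EC.

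The residual levels in the Emx1 lineage were not equal between the genes. The mean RPKM in the lineage was 0.18 times that of the brain translatome for Sp9, 0.21 times for Isl1, 0.30 times for Tac1 and 0.33 times for Six3. For Foxp1 and Sp8 it was 0.53 and 0.61 times. Beside these values stand the markers of cells that the driver should not label. The summed RPKM of the 8 endothelial markers was 11.8 to 14.1 in the lineage, against 117 to 133 in the brain translatome, and that of 10 medial eminence and interneuron markers was 100 to 109 against 317 to 352. Each of these markers had reads in the lineage. The part of such RNA in the residual levels was not tested.

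Other genes of the lateral ganglionic eminence and striatum were put on a list of 24 without the members. This list was chosen with earlier results of these data known, so its counts are a description and not independent support. Of the 24, 17 fell in the Emx1 lineage and 2 rose, with a median log2 fold change of -1.24. The deepest falls were those of Rxrg, a retinoid X receptor of striatal neurons (log2 -2.66, SE 0.12), and Gsx1, a homeodomain factor of ventral progenitors (-2.36, SE 0.17). The 2 genes that rose were Ppp1r1b, which codes for the signalling protein DARPP-32 (from 18.6 to 36.3 RPKM), and Bcl11b, which codes for the zinc-finger factor Ctip2 of striatal and deep-layer cortical neurons (log2 0.37, SE 0.06). All 4 passed edgeR's adjusted p of 0.001.

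Marker lists of other regions and cell types gave these counts. Of 10 medial eminence and interneuron markers 8 fell, as did 5 of 6 diencephalic markers, with medians of -1.66 and -2.08. All 8 endothelial and all 8 mural cell markers fell as well, with medians of -3.97 and -2.625. All 12 cortical markers rose, with a median of 1.05. All of these marker lists were chosen with earlier results of these data known. Among the cortical markers, Neurod2, Neurod6, Tbr1, Eomes and Bhlhe22 are also in the study's own list, as stated above. Of 8 pan-neuronal markers 1 rose and 2 fell, and their summed RPKM was 2138 to 2258 in the lineage against 2400 to 2438 in the brain translatome.

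**Figure D3:**
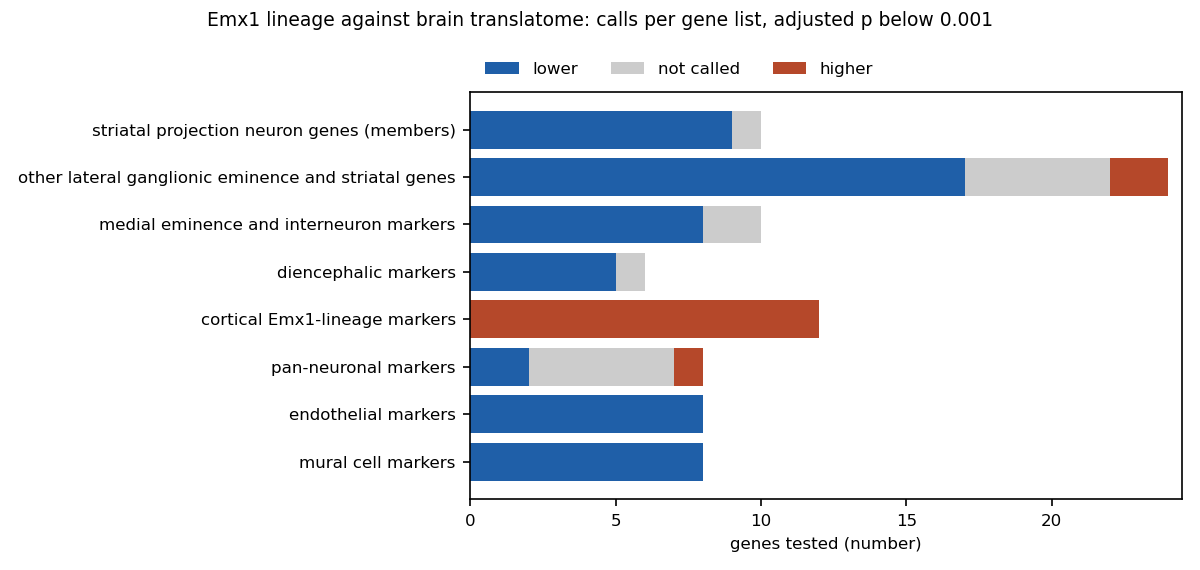
Number of genes called lower (blue), not called (grey) and called higher (red) in the Emx1 lineage against the brain translatome, for the 10 members and 7 marker lists, by edgeR at adjusted p below 0.001. Most members (9 of 10) and other striatal genes (17 of 24) are lower, as are most medial eminence and diencephalic markers. All 8 endothelial and all 8 mural cell markers are lower as well, and the 12 cortical markers are all higher.

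Among the peptide system genes, 12 were listed beside the members: the precursors Pdyn, Pomc and Tac2, 3 processing enzymes, and the opioid and tachykinin receptors. In the Emx1 lineage 2 of them fell and 0 rose. The 2 were Pomc (log2 -0.86, SE 0.16) and Cpe, carboxypeptidase E, which trims neuropeptides (-0.45, SE 0.05). Of 20 close relatives of the 8 transcription factors, 5 fell and 0 rose, led by Six2 (-1.72, SE 0.16) and Ebf3 (-0.55, SE 0.07), and the median was -0.08.

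The brain transcriptome was the other reference for the same lineage. Against it 7 of the 10 genes fell and 1 rose, where 23.8% of 19471 genes fell and 25.4% rose. This comparison shares the Emx1-lineage libraries with the one above. Isl1, Sp9, Foxp2, Six3, Foxp1, Sp8 and Ebf1 fell, by 4.76-fold for Isl1 and 4.78-fold for Sp9 at one end and 1.77-fold for Ebf1 at the other. Meis2 rose by 0.34 on the log2 scale (SE 0.05, edgeR adjusted p = 1.6e-05), but with total counts in place of composition factors it was 0.19 with adjusted p = 0.0027.

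The peptide genes did not pass against the transcriptome with composition factors. Tac1 had 9.56, 9.10 and 7.16 RPKM in the brain transcriptome, still above the Emx1 lineage in every library, and a log2 fold change of -0.42 (SE 0.12, edgeR adjusted p = 0.006). Penk had 2.06, 3.23 and 2.52 RPKM in the brain transcriptome and a log2 fold change of -0.54 (SE 0.16, edgeR adjusted p = 0.0074). With total counts Tac1 passed (-0.57, adjusted p = 5.8e-04), which made 8 genes lower in place of 7, and Penk did not (-0.69, adjusted p = 0.0012). Each passed when 1 library was left out. Tac1 gave -0.53 with adjusted p = 3.5e-04 without brain transcriptome replicate 3, and Penk -0.67 with adjusted p = 6.4e-04 without brain transcriptome replicate 1.

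Scaling moved the balance of calls over all genes in these comparisons. Higher genes made up 41.7% of the calls against the brain translatome and 51.6% against the brain transcriptome, and 29.9% and 39.6% when only total counts were used. The 9 falls of the members against the brain translatome were called under both scalings.

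Isl1, Six3 and Sp9 had nearly the same profile over the 21 libraries, with a Pearson r of log2(RPKM + 1) of 0.994 for Isl1 with Six3, 0.994 for Isl1 with Sp9 and 0.993 for Six3 with Sp9. These values describe libraries that share groups. The 250 bases before the RefSeq start of each of the 3 genes are shown because these genes had the most alike profiles among the members. Capitals mark 5 searched motifs on either strand: the CCAAT box (CCAAT), the GC box (GGGCGG), the homeodomain core (TAATTA), a Meis site (TGACAG) and the TATA box (TATAAA). The sequences are from RefSeq on GRCm38.p6 and run 5′ to 3′ on the strand of the gene.
Isl1, chr13:116309689-116309938, minus strand: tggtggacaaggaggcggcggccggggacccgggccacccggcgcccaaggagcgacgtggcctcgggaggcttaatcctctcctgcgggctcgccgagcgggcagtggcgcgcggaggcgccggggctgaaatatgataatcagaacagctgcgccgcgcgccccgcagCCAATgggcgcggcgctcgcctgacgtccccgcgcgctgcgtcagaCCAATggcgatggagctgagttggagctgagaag
Six3, chr17:85620584-85620833, plus strand: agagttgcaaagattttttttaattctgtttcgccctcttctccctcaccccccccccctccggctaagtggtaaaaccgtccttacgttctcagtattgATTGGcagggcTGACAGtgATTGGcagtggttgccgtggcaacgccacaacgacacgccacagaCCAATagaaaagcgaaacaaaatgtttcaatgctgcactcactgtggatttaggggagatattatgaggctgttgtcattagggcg
Sp9, chr2:73271676-73271925, plus strand: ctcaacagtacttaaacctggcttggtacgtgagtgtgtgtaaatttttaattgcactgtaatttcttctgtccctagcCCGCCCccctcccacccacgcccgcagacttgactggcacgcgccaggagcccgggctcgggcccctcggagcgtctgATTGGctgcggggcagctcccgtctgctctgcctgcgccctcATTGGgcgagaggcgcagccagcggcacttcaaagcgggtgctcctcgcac

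The CCAAT box was present 2 times in the Isl1 window, 3 times in the Six3 window and 2 times in the Sp9 window. It was found in 33.8% of all 32851 promoter windows of the same length. The GC box, found in 32.7% of windows, was present among these 3 in the Sp9 window only, and the Meis site, found in 15.9%, in the Six3 window only. The Six3 window lies inside the annotated span of Six3 and overlaps 44 exonic bases of Gm28528, a gene on the other strand (GENCODE). The windows also differed in base composition, with 71.2% G and C for Isl1, 48.8% for Six3 and 62.4% for Sp9. None of the 3 windows held TAATTA or TATAAA, which were found in 4.84% and 12.4% of windows. The motifs were chosen after the values were seen, CCAAT after the sequences were read, and a match describes letters and not a bound site. The RefSeq table held windows for 8 of the 10 genes, and not for Foxp2 and Penk.

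The brain EC translatome was compared with the brain translatome to ask which genes are translated in blood vessels of the forebrain. Foxp1 rose, 7 of the 10 genes fell, and Ebf1 and Penk did not pass. Over all 19103 genes tested, 24.8% were called higher and 21.4% lower. The 7 that fell were Isl1, Foxp2, Meis2, Six3, Sp8, Sp9 and Tac1.

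Foxp1, which is known to be expressed in vascular endothelium, had 18.2, 20.0 and 20.1 RPKM in brain EC, above the highest brain translatome library of 15.0. The log2 fold change was 0.81 (SE 0.08, edgeR adjusted p = 1.2e-06), and 0.51 with adjusted p = 7.1e-05 when total counts were used. Ebf1 had 15.2, 14.4 and 17.3 RPKM in brain EC, which overlapped with the 14.0 to 15.9 RPKM of the brain translatome. Its log2 fold change was 0.33 (SE 0.09, edgeR adjusted p = 0.0042). With total counts the value was 0.04, with adjusted p = 0.73.

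The other genes were lower in brain EC. Meis2 was at 20.8, 17.6 and 20.4 RPKM, below every library of the 6 other groups, and its log2 fold change was -1.84 (SE 0.08, edgeR adjusted p = 2.1e-10). Tac1 was at 3.10, 2.71 and 3.18 RPKM and had the deepest fall of the 10 genes (log2 -2.38, SE 0.15, edgeR adjusted p = 9.4e-09). Isl1 was at 4.34, 4.29 and 4.87 RPKM (log2 -2.21, SE 0.08, edgeR adjusted p = 5.1e-11). None of these libraries came near the brain translatome.

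The zinc-finger and homeodomain factors of the striatopallidal class also fell. Sp9 was at 6.65, 6.25 and 5.87 RPKM in brain EC (log2 -1.79, SE 0.08). Six3 was at 3.51, 3.12 and 3.99 RPKM (log2 -1.77, SE 0.10). Sp8 was at 1.86, 2.03 and 1.67 RPKM (log2 -1.39, SE 0.09). Foxp2 was at 6.44, 6.79 and 6.15 RPKM and had the smallest called fall, at -0.996 on the log2 scale (SE 0.07). The edgeR adjusted p of these 4 genes lay between 1.9e-10 for Sp9 and 2.3e-08 for Sp8.

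Penk, at 2.02, 1.98 and 1.94 RPKM in brain EC, lay below the lowest brain translatome library of 3.16 RPKM, yet its log2 fold change of -0.66 (SE 0.17) did not pass with edgeR (adjusted p = 0.0035). With total counts in place of composition factors it was -0.96, with adjusted p = 1.9e-04. Composition factors weighed on this comparison as a whole: 53.7% of all calls were higher with them and 36.1% without, and the median of all genes moved from -0.01 to -0.30 on the log2 scale.

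Neuronal RNA was present in the brain EC fraction as well. The summed RPKM of the 8 pan-neuronal markers was 460 to 574 in brain EC against 2400 to 2438 in the brain translatome, and 7 of the 8 fell. The sum of the 12 cortical markers was 124 to 164 RPKM in brain EC against 753 to 774, and all 12 fell. The mean RPKM in brain EC was 0.18 times that of the brain translatome for Isl1, 0.16 times for Tac1, 0.24 times for Sp9 and 0.24 times for Six3. The part of neuronal RNA in these levels was not tested.

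Of the 24 other striatal genes 18 fell in brain EC and 3 rose, with a median of -1.33 on the log2 scale. The deepest falls were those of Rxrg (-3.17, SE 0.13) and Dlx5, a homeodomain factor of ventral GABA neurons (-2.73, SE 0.08). Adora2a, which codes for an adenosine receptor of striatopallidal neurons and of vessels, rose by 3.28 on the log2 scale (SE 0.08), from 6.96 to 55.4 RPKM. Rgs9, a regulator of G protein signalling in the adult striatum, rose by 0.76 (SE 0.15). Of the 12 peptide system genes 5 fell and 0 rose, led by Tac2 (-2.81, SE 0.44) and Pomc (-1.56, SE 0.18). Of the 20 relatives of the transcription factors 6 fell and 2 rose, with Meis3 (-2.61, SE 0.10) at one end and Sp1 (1.27, SE 0.08) at the other.

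The translatome and transcriptome of the same forebrains were compared to ask which transcripts are over- or underrepresented on tagged ribosomes. The study names possible biases of the method, such as levels of the tagged protein that differ between cell types. These were not tested here, in brain or in kidney. Tac1 was the only one of the 10 genes that rose and 0 fell, while 18.6% of 19446 genes rose and 18.5% fell. Its 23.6, 17.9 and 15.8 RPKM in the translatome stood against 9.56, 9.10 and 7.16 in the transcriptome of the same tissue samples, higher in 3 of 3. The log2 fold change was 1.19 (SE 0.14, edgeR adjusted p = 4.1e-06), or 2.28-fold.

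The 9 other genes did not pass. Their log2 fold changes ran from -0.26 for Sp8 to 0.58 for Penk. Penk had 3.46, 4.89 and 3.16 RPKM in the translatome and 2.06, 3.23 and 2.52 in the transcriptome, which overlapped between the groups but were higher in the translatome in each of the 3 tissue samples (edgeR adjusted p = 0.015). Ebf1 had 15.9, 15.5 and 14.0 RPKM in the translatome and 14.7, 11.3 and 11.5 in the transcriptome (log2 0.31, SE 0.10, edgeR adjusted p = 0.015).

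The same-numbered libraries came from the same tissue samples, and with the tissue sample as a block 3 of the 10 genes rose. Over all 19446 genes tested, the calls went from 7221 to 8933, with both directions counted together. Penk then gave 0.59 on the log2 scale (edgeR adjusted p = 2.0e-05) and Ebf1 0.31 (edgeR adjusted p = 2.7e-04), beside Tac1. Ebf1 also passed without brain transcriptome replicate 1, at 0.43 with adjusted p = 2.9e-04. For Meis2, Six3 and Sp9 the log2 fold changes without the block were 0.05, 0.11 and 0.05, with 95% intervals of -0.06 to 0.15, -0.04 to 0.25 and -0.06 to 0.16.

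Of the 24 other striatal genes 8 rose and 5 fell on ribosomes of the forebrain, and of the 12 peptide system genes 2 rose. The 2 were the peptide processing enzymes Pcsk2 (log2 0.35, SE 0.07) and Cpe (0.29, SE 0.06). Among the striatal genes Rxrg (0.96, SE 0.12) and Adora2a (0.90, SE 0.09) rose most, and Rgs9 (-1.21, SE 0.12) and Ikzf2, a zinc-finger factor (-1.07, SE 0.11), fell most. Of the 20 relatives 2 rose and 7 fell.

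In the kidney the same comparison was informative for 5 of the 10 genes, since Isl1, Six3, Sp8, Sp9 and Tac1 had between 0 and 11 reads per library. Meis2 was the member that rose and 0 members fell, where 14.9% of 19336 genes rose and 15.8% fell. Meis2 had 112, 96.6 and 96.7 RPKM in the kidney translatome and 81.8, 74.1 and 73.4 in the transcriptome. The groups did not overlap, and the log2 fold change was 0.41 (SE 0.07, edgeR adjusted p = 6.0e-04). The call was lost without kidney transcriptome replicate 2 (0.39, adjusted p = 0.0026), kidney transcriptome replicate 3 (0.38, adjusted p = 0.0022) or kidney translatome replicate 3 (0.44, adjusted p = 0.0013).

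Foxp1, Foxp2, Ebf1 and Penk gave positive values in the kidney that did not pass. Foxp1 had 17.6, 16.6 and 16.2 RPKM on ribosomes and 14.6, 14.4 and 12.8 in total RNA (log2 0.24, SE 0.05, edgeR adjusted p = 0.0020). Foxp2 had 5.84, 4.65 and 4.21 RPKM on ribosomes and 3.796, 3.11 and 2.79 in total RNA (log2 0.58, SE 0.14, edgeR adjusted p = 0.0045). In both genes the lowest ribosome library stood above the highest total RNA library, and DESeq2 called both, at 0.25 with adjusted p = 2.2e-04 for Foxp1 and 0.59 with adjusted p = 1.0e-04 for Foxp2.

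Penk and Ebf1 varied more between kidneys. Penk had 70.5, 89.9 and 92.8 RPKM on ribosomes and 47.4, 67.2 and 69.8 in total RNA (log2 0.46, SE 0.14, edgeR adjusted p = 0.017). Ebf1 had 14.1, 11.6 and 9.23 RPKM on ribosomes and 9.44, 7.81 and 5.81 in total RNA (log2 0.59, SE 0.18, edgeR adjusted p = 0.019). The order of the 3 kidney samples was the same in both fractions of each gene.

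With the tissue sample as a block 5 of the 10 genes rose in the kidney. Ebf1 then gave 0.60 on the log2 scale (edgeR adjusted p = 1.1e-21), Foxp1 0.24 (1.4e-08), Foxp2 0.59 (1.3e-23) and Penk 0.47 (1.6e-29), beside Meis2. In this fit edgeR found no spread between genes beyond the trend and set each gene's spread to the trend value, so the adjusted p-values do not rest on the gene's own 3 pairs. Over all 19336 genes tested, the block raised the calls from 5929 to 9496, with both directions counted together.

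Whether the organs differ in ribosome association was tested as an interaction over the 12 libraries. None of the 10 genes passed with edgeR at 0.001, where 6.47% of 20108 genes did. The genes with adequate reads in both organs gave -0.71 for Foxp2 (SE 0.16, edgeR adjusted p = 0.0040), -0.47 for Foxp1 (SE 0.09, 0.0012), -0.38 for Meis2 (SE 0.10, 0.0094), -0.31 for Ebf1 (SE 0.24, 0.42) and 0.08 for Penk (SE 0.25, 0.93), as brain minus kidney on the log2 scale. At an adjusted p of 0.05, 5 of the 10 genes passed with edgeR, as did 4647 of the 20108 genes. The same 5 passed at an unadjusted p of 0.05, as did 6654 of all genes. They were Foxp1, Foxp2, Meis2, Isl1 and Sp8, of which the last 2 had 0 to 6 reads in each kidney library.

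Foxp1, Foxp2 and Meis2 were called in other fits, which called 2669 (DESeq2) and 3445 (block) of all genes against 1301. With DESeq2 the adjusted p was 4.4e-05 for Foxp1, 1.8e-04 for Foxp2 and 2.6e-04 for Meis2. With the tissue sample as a block edgeR gave -0.47 (adjusted p = 1.8e-06), -0.72 (3.2e-09) and -0.38 (9.1e-06). Foxp1 also passed without brain translatome replicate 2 (-0.53, adjusted p = 3.8e-04) and Foxp2 without kidney transcriptome replicate 1 (-0.86, adjusted p = 6.1e-04).

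The kidney served as the organ without a striatum. In total RNA 9 of the 10 genes were higher in brain and 1, Penk, was lower, where 27.2% of 19841 genes were higher and 26.3% lower. On ribosomes 7 were higher and 1 lower, where 27.2% of 19241 genes were higher and 26.2% lower. Both comparisons use the same organs, and the genes fell into 3 kinds: near absent from kidney, present in both organs, and higher in kidney.

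Isl1, Six3, Sp8, Sp9 and Tac1 were near absent from kidney. Isl1 had 3, 2 and 1 reads in the kidney transcriptome libraries and 3119, 4125 and 3733 in those of the brain. Per total reads its level was 1490 times higher in brain (95% interval 686 to 4070), and on ribosomes 408 times (228 to 818), where kidney had 4, 6 and 1 reads. These intervals cover counting error only.

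Six3 had 5, 0 and 1 reads in the kidney transcriptome and 3, 3 and 1 in the kidney translatome, with brain to kidney ratios of 1060 (95% interval 487 to 2890) and 538 (261 to 1340). Sp8 had 0, 0 and 1 reads and 2, 3 and 0 reads, with ratios of 3960 (710 to 156000) and 371 (159 to 1140). Sp9 had 10, 4 and 4 reads and 4, 11 and 2 reads, with ratios of 499 (316 to 842) and 308 (192 to 530). The highest of these whole-kidney values was 0.166 RPKM, for Sp9 in kidney translatome replicate 2.

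Tac1 had 3, 3 and 1 reads in the kidney transcriptome and 8, 2 and 3 in the kidney translatome. Its ratios of brain to kidney were the smallest of the 5 genes, at 156 (95% interval 75.4 to 388) in total RNA and 110 (64.1 to 207) on ribosomes. The highest kidney library, kidney translatome replicate 1, was at 0.317 RPKM.

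Foxp2, Ebf1, Foxp1 and Meis2 were present in both organs. Foxp2 differed most, with 17.4 ± 1.18 RPKM (SD, n = 3) in brain and 3.23 ± 0.516 in kidney total RNA and a log2 fold change of 2.59 (SE 0.11, edgeR adjusted p = 2.2e-09). On ribosomes it was 1.88 (SE 0.10, edgeR adjusted p = 5.7e-10). The libraries of the organs did not overlap in either fraction.

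Ebf1 was higher in brain by 0.88 on the log2 scale in total RNA (SE 0.17, edgeR adjusted p = 6.0e-04) and by 0.58 on ribosomes (SE 0.12, edgeR adjusted p = 8.7e-04), where the libraries of the organs overlapped. Neither call held throughout. In total RNA it was lost with total counts (0.70, adjusted p = 0.0019), with a filter on low counts (0.87, 0.0014), and without brain transcriptome replicate 1 (0.75, 0.0023), 2 (0.95, 0.0011) or 3 (0.93, 0.0017) or kidney transcriptome replicate 2 (0.89, 0.0013). On ribosomes it was lost with total counts (0.39, adjusted p = 0.013), with the filter (0.56, 0.0028), in a single fit of all 21 libraries (0.58, 0.0013), without brain translatome replicate 1 (0.55, adjusted p = 0.020), 2 (0.57, 0.0021) or 3 (0.63, 0.0013) and without kidney translatome replicate 2 (0.58, 0.0015) or 3 (0.44, 0.0026).

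Foxp1 and Meis2 were at nearly the same level in both organs. In total RNA Foxp1 was 16.2 ± 0.240 RPKM in brain and 13.9 ± 1.03 in kidney (log2 0.35, SE 0.05, edgeR adjusted p = 4.2e-05), and Meis2 was 85.4 ± 2.88 and 76.5 ± 4.65 RPKM (log2 0.35, SE 0.06, edgeR adjusted p = 3.1e-04; SD, n = 3). On ribosomes neither passed, with log2 fold changes of -0.11 for Foxp1 (95% interval -0.25 to 0.03) and -0.03 for Meis2 (-0.17 to 0.11).

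The calls of Foxp1 and Meis2 in total RNA depended on the scaling. With total counts in place of composition factors they were 0.17 (edgeR adjusted p = 0.0036) and 0.17 (adjusted p = 0.018), and the median of all genes moved from -0.02 to -0.20. The call of Meis2 was also lost without kidney transcriptome replicate 2 (0.33, adjusted p = 0.0018) or 3 (0.31, adjusted p = 0.0011).

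Penk was the gene with the opposite pattern. It had 47.4, 67.2 and 69.8 RPKM in the kidney transcriptome and 2.06, 3.23 and 2.52 in the brain transcriptome. All whole-kidney libraries were above 47 RPKM and all brain libraries below 5, ribosome-bound RNA included. Kidney EC lay between them, at 7.16 to 13.0 RPKM. Penk was lower in brain by a factor of 20.5 in total RNA (log2 -4.36, SE 0.18, edgeR adjusted p = 2.4e-09) and 19.3 on ribosomes (log2 -4.27, SE 0.14, edgeR adjusted p = 6.5e-12).

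The wider lists showed which genes share these patterns. Of the 24 other striatal genes 17 were higher in the brain translatome than in the kidney translatome and 3 were lower, among them the retinoic acid receptor Rarb (log2 -2.43, SE 0.07) and the zinc-finger gene Zfp503 (-2.24, SE 0.06). Of the 12 peptide system genes 7 were higher in brain, led by Pcsk2 (3.90, SE 0.12) and Cpe (3.23, SE 0.09), and 2 were lower, with the tachykinin receptor gene Tacr3 at -2.67 (SE 0.23). Of the 20 relatives 5 were higher in brain and 9 lower. Six2, the nephron progenitor relative of Six3, was at 114.5 RPKM in the kidney translatome and 1.36 in the brain translatome (log2 -6.19, SE 0.11).

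The kidney EC translatome was set against the kidney translatome as the second endothelial comparison. Of the 10 genes 0 rose and 2 fell, Penk and Foxp2, where 16.7% of 18940 genes rose and 15.0% fell. Penk had 13.0, 7.16 and 8.34 RPKM in kidney EC against 70.5, 89.9 and 92.8 in the kidney translatome (log2 -2.78, SE 0.19, edgeR adjusted p = 3.9e-07). The summed RPKM of 8 kidney stroma markers was 329 to 470 in kidney EC and 671 to 804 in the kidney translatome, and their part in the level of Penk was not tested.

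Foxp2 had 1.92, 1.43 and 2.20 RPKM in kidney EC against 5.84, 4.65 and 4.21 in the kidney translatome, without overlap. Foxp2 fell by 1.03 on the log2 scale (SE 0.17, edgeR adjusted p = 2.8e-04). The call was lost without kidney translatome replicate 1 (-0.88, adjusted p = 0.0011), kidney translatome replicate 3 (-1.13, adjusted p = 0.0011) or kidney EC replicate 1 (-1.07, adjusted p = 0.0010).

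Foxp1, Meis2 and Ebf1 did not pass, although their RPKM did not overlap. Foxp1 was at 13.4, 12.5 and 14.2 RPKM in kidney EC, Meis2 at 75.9, 74.7 and 70.7, and Ebf1 at 8.82, 8.64 and 8.31, all below the lowest kidney translatome library. Their log2 fold changes with composition factors were 0.00, -0.11 and -0.08. With total counts Foxp1 gave -0.37 (edgeR adjusted p = 3.5e-04), Meis2 -0.47 (1.7e-04) and Ebf1 -0.45 (0.0095). Scaling shifted the median of all genes from -0.04 to -0.41, and the share of calls that were higher from 52.7% to 21.7%.

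Isl1 differed between the kidney EC libraries. It had 36, 1 and 38 reads, or 0.321, 0.0121 and 0.366 RPKM, against 4, 6 and 1 reads in the kidney translatome. Replicate 2 lay within the range of the kidney translatome, and the other libraries were above it. The log2 fold change of 2.28 (SE 0.87) did not pass with edgeR (adjusted p = 0.045), and without kidney EC replicate 2 it was 2.80 with adjusted p = 5.4e-04.

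Of the 22 other striatal genes tested in kidney EC 1 rose and 2 fell. The gene that rose was Adora2a (log2 2.41, SE 0.09), from 7.19 to 29.9 RPKM, and Tshz1 (-0.63, SE 0.06) and Zfp503 (-0.43, SE 0.06) fell. Of 19 relatives tested 10 fell, with Six2 at -2.71 (SE 0.11) and Meis3 at -2.70 (SE 0.15), and 0 rose.

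The endothelial fractions of the organs were compared directly. In brain EC 8 of the 10 genes were higher than in kidney EC and 2 were lower, where 20.1% of 19238 genes were higher and 16.9% lower. Foxp2 was higher by 1.83 on the log2 scale (SE 0.14, edgeR adjusted p = 1.0e-06), Ebf1 by 0.91 (SE 0.09, 5.1e-06) and Foxp1 by 0.60 (SE 0.08, 5.6e-05). Meis2 was lower in brain EC, at 19.6 ± 1.76 RPKM (SD, n = 3) against 73.8 ± 2.75 in kidney EC (log2 -1.85, SE 0.08, edgeR adjusted p = 9.8e-09), and Penk as well (-2.23, SE 0.21, edgeR adjusted p = 5.2e-06).

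The other 5 genes had few reads in kidney EC. Per total reads, the ratio of brain EC to kidney EC was 18.1 for Isl1 (95% interval 14.3 to 23.1), 74.2 for Tac1 (31.6 to 229), 150 for Sp9 (89.4 to 275), 223 for Six3 (108 to 555) and 329 for Sp8 (112 to 1600). The Isl1 ratio pools kidney EC libraries of 36, 1 and 38 reads, a spread that its counting interval does not cover. The pan-neuronal sum, 460 to 574 RPKM in brain EC and 16.4 to 18.4 in kidney EC, differed in the same direction.

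**Figure D4:**
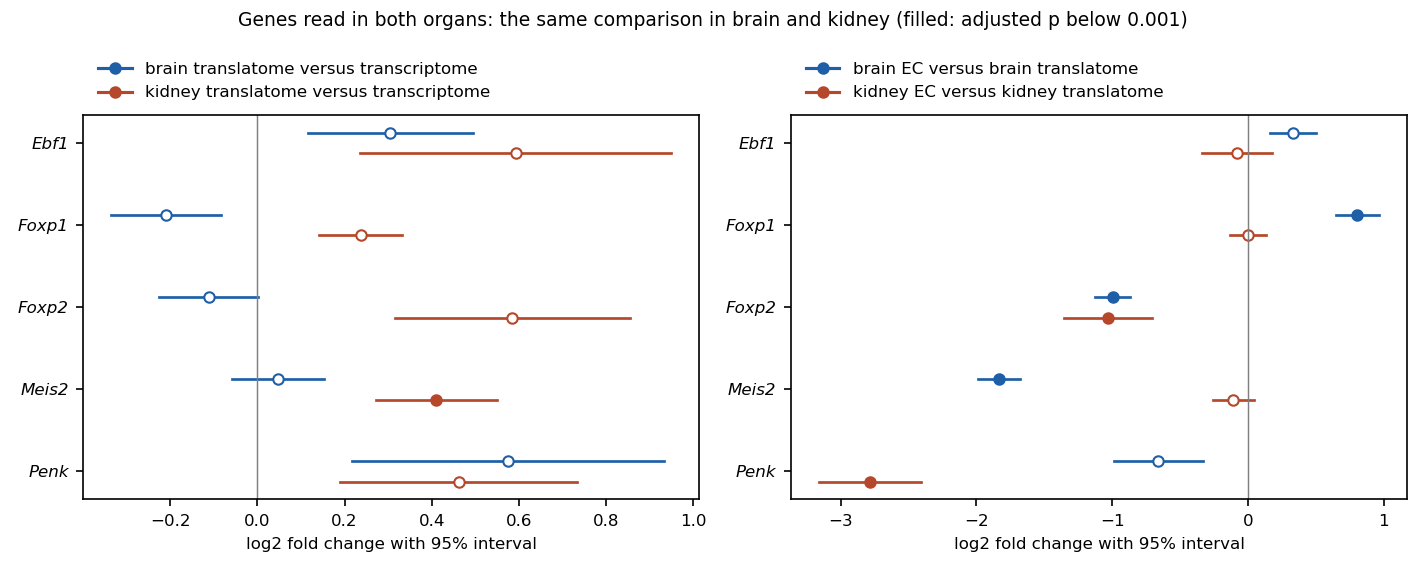
Log2 fold changes with 95% intervals of the edgeR fits for the 5 genes read in both organs, on ribosomes against total RNA (left) and in the endothelial fraction against the whole-organ translatome (right), brain in blue and kidney in red. Filled points have an adjusted p below 0.001, as for Meis2 in kidney on the left, and on the right Meis2 lies at -1.84 in brain and -0.11 in kidney.

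The difference between the organs in endothelial enrichment was tested as an interaction over 12 libraries. It was called for 4 of the 10 genes, where 25.1% of 19764 genes were called in either direction and the median of all genes was 0.16 on the log2 scale. As brain minus kidney, Meis2 gave -1.70 (SE 0.11, edgeR adjusted p = 2.0e-09), Isl1 -4.50 (SE 0.68, 3.9e-05), Penk 2.15 (SE 0.28, 9.1e-06) and Foxp1 0.835 (SE 0.11, 9.7e-06). The value of Isl1 rests on 36, 1 and 38 reads in kidney EC and 4, 6 and 1 in the kidney translatome, where the comparison within kidney was not called (2.28, adjusted p = 0.045), and ran from -5.02 to -4.09 when 1 library was left out. The value of Meis2 was -1.84 in brain EC and -0.11 in kidney EC, each against its own organ, and -2.13 and -0.47 with total counts. Penk was enriched in neither endothelial fraction, at -0.66 in brain EC (not called) and -2.78 in kidney EC. Ebf1 gave 0.44 (SE 0.17, adjusted p = 0.042) and Foxp2 0.06 (SE 0.18, adjusted p = 0.88, 95% interval -0.30 to 0.42).

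The order of the 7 groups differed between the genes. For Isl1 it ran from the brain transcriptome (28.8 ± 0.0573 RPKM, SD, n = 3) over the brain translatome (25.4 ± 0.869) to the Emx1 lineage (5.37 ± 0.682) and brain EC (4.50 ± 0.320), whose ranges overlapped, and then to the kidney groups. For Ebf1 each group overlapped with its neighbour in the order, except the kidney translatome (11.6 ± 2.44) with kidney EC (8.59 ± 0.261). For Meis2 the 6 groups other than brain EC lay between 73.8 ± 2.75 and 101.9 ± 9.03 RPKM.

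The genes with the most alike profile over the 21 libraries, by Pearson r of log2(RPKM + 1) among 14558 genes, are given as a description of libraries that share groups. The choice depends on the added constant: with 0.1 in its place, only 15 of the genes named here and in the next paragraph were found again. For Isl1 the most alike genes were Nkx2-1 (0.997), Dlx6as1 (0.996) and Vax1 (0.996). For Six3 they were Dlx6 (0.998), Dlx1 (0.997) and Dlx2 (0.997), and for Sp9 Nkx2-1 (0.996), Isl1 (0.994) and Dlx1as (0.994). For Sp8 they were Olig2, Trim36 and Slc1a2 (0.997 to 0.998), and for Tac1 Dmrtb1, 2700069I18Rik and Rit2 (0.990 to 0.994).

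For Ebf1 they were Abca9 (0.840), Fcrls and Arl4a, for Foxp1 Bgn (0.923), Unc93b1 and Rev3l, and for Meis2 Insig1 (0.960), Ccnk and Jam3. For Foxp2 they were Ptprt (0.990), Syt13 and Grm3, and for Penk Alx1 (0.993), Sdc2 and Stbd1. Within the members, Penk had negative values with Isl1 (-0.757), Six3 (-0.778) and Sp8 (-0.792), and Foxp1 was most alike Ebf1 (0.734).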

How the data were processed

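TRAP-seq and total RNA-seq of E14.5 mouse forebrain and kidney gave 21 libraries, 3 for each of 7 groups. The deposited count of a gene is the number of reads the authors counted on it, without normalization, after mapping with RUM to GRCm38 (mm10) and counting with rpkmforgenes on UCSC refGene models. RPKM was computed by the authors with that program as well. No sample and no file was left out.

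The quasi-likelihood test of edgeR 4.0.16 (R 4.3.3), with TMM composition factors, was run on the counts over all genes with at least 1 count, in 9 pairwise comparisons fitted on 6 samples each and 2 interactions fitted on 12. P-values were adjusted by Benjamini-Hochberg over all genes tested and called below 0.001, after the threshold of the study. All log2 fold changes are edgeR's, on the scale set by the composition factors. The tests were two-sided. Interaction terms are brain minus kidney. The script was tested on simulated data. DESeq2 1.42.0 and the alternatives of the closing section were run on the same counts, and tables and figures were made in Python 3.11.15. With total reads of 21760652 to 79231692 per sample, precision is given as SE, SD or a 95% interval.

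Same-numbered Sox2Cre translatome and transcriptome libraries came from the same tissue sample in the study's sample list, and their deviations from the group means correlated by 0.518 to 0.621 in brain and 0.581 to 0.657 in kidney (13510 genes), against -0.283 and -0.305 on average for other numbers. Brain EC and kidney EC libraries of the same number correlated by 0.158 to 0.294.

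The members and gene lists were chosen with earlier results of these data known. All 10 members are named. From each list the 2 genes with the largest rise and the 2 with the largest fall could be named, among those called with a mean RPKM of at least 1 in either group, and for each member the 3 genes with the highest Pearson r. Where both groups of a kidney comparison were below 0.2 RPKM, no fitted fold change is given. Isl1 in kidney EC, at 0.233 RPKM, lay just above that limit. That limit and the motifs were chosen after the values were seen. The ratios of brain to kidney for Isl1, Six3, Sp8, Sp9 and Tac1 are per total reads, with exact conditional binomial intervals. Gene positions are from GENCODE vM21 on GRCm38, promoter windows of 250 bases from RefSeq. Proteins were not used here.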

Additional observations from a re-analysis of the deposited data

Results flagged for a closer look

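For 4 genes the log2 fold change of the endothelial fraction against its own organ differed between the organs. The test was the interaction term of edgeR's quasi-likelihood test over 12 libraries. The log2 difference, brain minus kidney, was -4.501 for Isl1 (SE 0.679, adjusted p = 3.9e-05), where the kidney side rests on 36, 1 and 38 reads in kidney EC and 4, 6 and 1 in the kidney translatome. The kidney comparison of Isl1 on its own was not called (2.28, adjusted p = 0.045). The difference was 0.835 for Foxp1 (SE 0.111, adjusted p = 9.7e-06), -1.701 for Meis2 (SE 0.11, adjusted p = 2.0e-09) and 2.154 for Penk (SE 0.284, adjusted p = 9.1e-06). Meis2 and Penk were enriched in neither endothelial fraction. Penk was at -0.66 in brain EC (not called) and -2.78 in kidney EC, and Meis2 at -1.84 and -0.11 (the latter not called). The 4 interaction calls were made under every alternative run. The 3 libraries of each group are too few for a test of single outlying samples.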

How the results depend on the processing

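Of the log2 fold changes of members under the alternatives, 1165 kept the direction and side of the threshold of the main fit. A further 45 passed only in the alternative, 26 passed only in the main fit, and 14 turned direction. No alternative that turned a direction concerned a called value.

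At an adjusted p of 0.05 the calls over all genes were 8580 (Emx1 lineage against brain translatome), 10855 and 9754 (translatome against transcriptome, brain and kidney), 10509 (kidney EC against kidney translatome), 11469 (brain EC against kidney EC), 4647 (organ difference in ribosome association) and 8522 (organ difference in endothelial enrichment). At 0.001 they were 4191, 7221, 5929, 6000, 7127, 1301 and 4958. The counts of members that moved by over 1.5 times at 0.05 were 1 higher in the Emx1 lineage against the translatome, 3 higher and 3 lower on ribosomes in brain, 5 higher in kidney, 2 higher in brain EC, 1 higher in kidney EC, and 5 in the ribosome interaction.

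DESeq2 called 1 member higher in the Emx1 lineage against the translatome, 3 higher on kidney ribosomes and 3 in the ribosome interaction, with 2669 genes called in all. Without composition factors, 0 members were higher in the Emx1 lineage against the transcriptome, where 9603 genes were called in all and 39.6% of them higher. In kidney EC 4 members were then lower, and the calls over all genes moved toward lower as well, as given above. The single fit of 21 samples gave 0 members higher in the Emx1 lineage against the transcriptome and 2 higher on kidney ribosomes. The replicate block gave 3 members higher on brain ribosomes, with the calls over all genes given above. It gave 5 on kidney ribosomes (9496 genes in all) and 3 in the ribosome interaction (3445 genes in all). It changed no call of a member elsewhere. With a pseudocount of 0.1, 15 of the 30 most alike genes were found again.

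Leaving out 1 library gave 1 to 2 members higher on brain ribosomes (6239 to 7016 genes in all) and 0 to 1 on kidney ribosomes (4962 to 5483). In kidney EC it gave 0 to 1 higher and 1 to 2 lower (4250 to 5799 genes in all). In the ribosome interaction 0 to 1 were called (850 to 1248 genes in all). Between the organs 7 to 9 were higher in brain total RNA (9470 to 10012 genes in all) and 6 to 7 on ribosomes (8550 to 9830). The 9 falls in the Emx1 lineage against the brain translatome were called each time, with 3117 to 3642 genes called in all.

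Uncalled values changed sign when 1 library was left out. They ranged from -0.004 to 0.093 for Sp9 on brain ribosomes (below 0, at -0.001 and -0.004, without brain transcriptome replicate 2 or brain translatome replicate 1), from -0.067 to 0.046 for Meis2 between organs on ribosomes, from -0.221 to 0.085 for Ebf1 and from -0.053 to 0.055 for Foxp1 in kidney EC (0.036 without kidney translatome replicate 1), from -0.107 to 0.264 for Penk in the ribosome interaction (-0.052, -0.007 and -0.024 in others), and from -0.099 to 0.202 for Foxp2 in the endothelial interaction (-0.088 in another). Foxp2 there was also -0.029 with DESeq2 and -0.030 with relative log expression factors. The cause was not tested.

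In the other comparisons the numbers are shared without shared tissue, and same-numbered libraries correlated by -0.034 to 0.059 (Emx1 lineage with brain translatome), 0.016 to 0.213 (with brain transcriptome), -0.105 to 0.486 and -0.090 to 0.368 (brain with kidney, total and ribosome-bound), -0.057 to 0.103 (brain EC) and -0.015 to 0.025 (kidney EC). No symbol of a member was repeated, so summing rows gave no other value. Depth limits Isl1, Six3, Sp8, Sp9 and Tac1 in kidney, where a library held 0 to 38 reads.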
